A study of Homo sapiens with 6 samples.

Results

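Immediate early genes are transcribed within minutes of a growth factor, depolarisation or stress signal, without the need for new protein, and most of them encode transcription factors. Signalling kinases, among them ERK, JNK and p38, lead to phosphorylation of serum response factor (SRF) partners and of CREB. These factors already sit on the promoters of the genes. AU-rich elements in many of the mRNAs make the transcripts short-lived. In sympathetic neurons and in neuroblastoma cells immediate early genes are widely used as markers of recent stimulation. The 10 genes described here were taken by name from the 28752 genes of the deposited table: FOS and FOSB, JUN, JUNB and JUND, EGR1, EGR2 and EGR3, IER2 and NR4A1. Their names were chosen as a family, with earlier results of these data known, and all 10 passed the filter on low counts.

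SH-SY5Y is an established human neuroblastoma line. It was transfected with OE-circSHPRH (3 libraries, replicates 1 to 3) or with OE-NC (3 libraries, replicates 1 to 3) and harvested after 72 h. OE and NC are not explained in the labels; OE-NC serves as the control group. Both groups were transfected, so an effect of transfection itself, which all 6 libraries share, cannot be measured. The labels do not say that the replicates were separate cultures, so p-values measure only how far these libraries differ, possibly for technical reasons. Total RNA was sequenced, and a library held 15645261 to 17244665 counts in OE-circSHPRH and 15657848 to 17591718 in OE-NC. SHPRH, the host gene of the circular RNA, was higher in OE-circSHPRH, at 1.54 ± 0.083 on the log2 scale (fold change ± SE; edgeR adjusted p = 2.26e-09), although gene counts do not separate circular from linear RNA. Of the adrenergic neuroblastoma markers, 10 of 10 were detected in the libraries, with a summed level of 1518 to 1565 FPKM in OE-circSHPRH and 1496 to 1515 FPKM in OE-NC. Their log2 fold changes were positive for 6 and negative for 4. The groups did not overlap for 3 of the 10, all higher in OE-circSHPRH, and DESeq2 called 1 of these, DBH (adjusted p = 0.0407, against 0.149 in edgeR). Over all genes tested, 15.6% did not overlap in either direction and 7.99% were higher in OE-circSHPRH without overlap. DESeq2 called 1.19% of the genes to which it gave an adjusted p. Of 8 mesenchymal markers 7 were in the table, at a summed 135 to 142 FPKM in OE-circSHPRH and 134 to 145 FPKM in OE-NC. Of the 6 mesenchymal markers tested, 4 had positive and 2 negative log2 fold changes, and the groups did not overlap for 2. At an unadjusted edgeR p under 0.05, 1 was higher and 1 lower in OE-circSHPRH. The part of these markers in the results was not tested. Of the markers of other lineages found in the table, PECAM1 and ALB had at most 2 counts in any library and EPCAM 22 to 39.

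The series title concerns a peptide encoded by the circular RNA, p21 and cyclin-dependent kinases. The question put here is whether mRNAs of the fast-response genes at 72 h were at other levels with OE-circSHPRH than with OE-NC. None of the 10 was called different between the groups, and 95% intervals were wider for FOS, FOSB, EGR2 and EGR3 than for the other members. Among the others, OE-circSHPRH over OE-NC was 1.04-fold for JUND (0.963 to 1.12), 0.920-fold for JUNB (0.813 to 1.04) and 1.01-fold for EGR1 (0.930 to 1.10). It was 0.968-fold for IER2 (0.873 to 1.07), 0.901-fold for JUN (0.823 to 0.986) and 0.952-fold for NR4A1 (0.869 to 1.04). Across the 16458 genes tested, 0.188% were called at an adjusted p under 0.05 by edgeR (quasi-likelihood test, Benjamini-Hochberg adjustment), 0.128% as rising and 0.0608% as falling. The count among the 10 immediate early genes was 0 by edgeR and by limma-voom, which called 0.213% of all genes. DESeq2 called 0 of the 6 members to which it gave an adjusted p, against 1.19% of the 6455 genes with one. It gave none to FOS, FOSB, EGR2 and EGR3, which it therefore could not call. At an unadjusted p under 0.05 the count was 1 with edgeR (JUN), 0 with DESeq2 and 1 with limma-voom, against 10.3% of all genes tested with edgeR. The members had a median log2 fold change of -0.06, with 3 positive and 7 negative, against a median of 0.0018 over all genes tested.

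The levels ran from well expressed to barely detected, with NR4A1 in between. In deposited FPKM, which divides by gene length and so lets genes be compared, the order over the 6 libraries was JUND (mean 62.3), JUNB (36.0), EGR1 (21.8), IER2 (17.8), JUN (16.2), NR4A1 (5.10), FOS (0.600), EGR3 (0.427), EGR2 (0.257) and FOSB (0.136). JUND was higher than 97.1% of the 15930 protein-coding genes in the table, NR4A1 higher than 54.6% and FOSB higher than 17.3% of them. The ranges over libraries of IER2 and JUN overlapped, although IER2 was above JUN in 6 of 6 libraries. So did those of FOS and EGR3 (FOS above in 5 of 6) and of EGR2 and FOSB (EGR2 above in 6 of 6). All other neighbours in the order had separate ranges, and the widest step was the 8.50-fold one between NR4A1 and FOS. The deposited length counts every annotated exon base, 7295 for NR4A1 against 2678 in its principal transcript. On principal transcript lengths, an alternative chosen after seeing the data, NR4A1 stood at 13.9 and FOS at 0.9002, and the order of the 10 genes was the same.

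**Figure D1:**
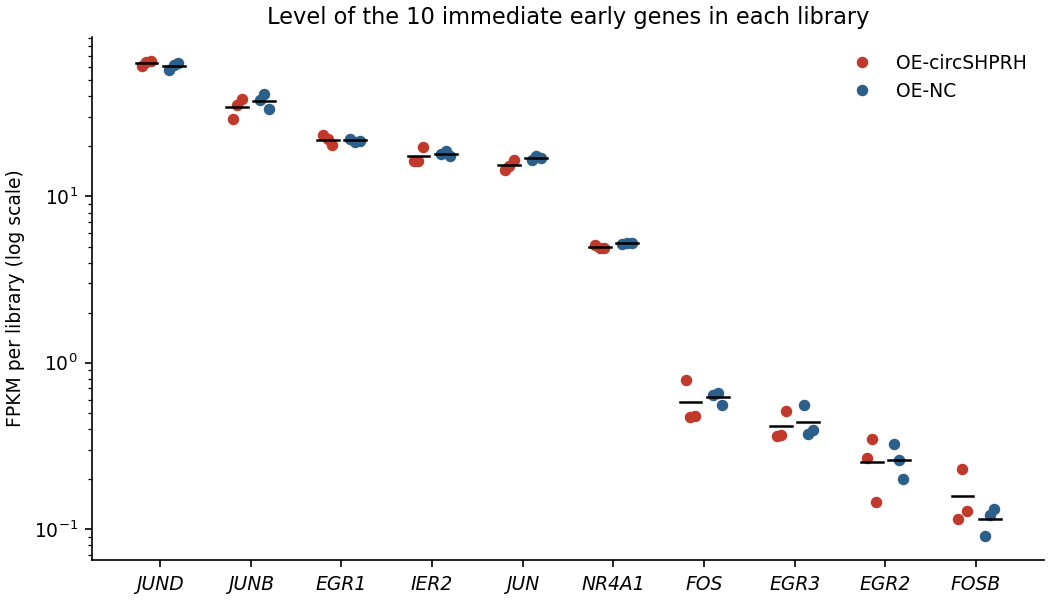
FPKM of each immediate early gene (log axis) in the 3 OE-circSHPRH libraries (red) and the 3 OE-NC libraries (blue); black lines are group means. The widest step in the order lies between NR4A1 (mean 5.10) and FOS (mean 0.600), and the red and blue points of each gene lie close together or overlap.

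JUN family proteins pair with FOS family proteins, or with each other, to form the AP-1 transcription factor. JUND, which encodes the JUN protein often found at steady levels in resting cells, had 114, 121 and 124 CPM in OE-circSHPRH replicates 1 to 3, against 108, 117 and 120 CPM in OE-NC replicates 1 to 3. The groups overlapped, and the log2 fold change was 0.05 (SE 0.052; adjusted p of 0.793 in edgeR, 95% interval -0.06 to 0.16). JUNB, whose protein can restrain JUN, had 53.9, 65.3 and 71.3 CPM in OE-circSHPRH, against 69.6, 75.7 and 61.8 CPM in OE-NC. OE-circSHPRH replicate 1 was the lowest of the 6, while OE-circSHPRH replicate 3 lay above 2 OE-NC libraries. The log2 fold change of JUNB was -0.12 (SE 0.085; adjusted p of 0.668 in edgeR), with a 95% interval of -0.30 to 0.06.

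JUN, the founding AP-1 subunit and a target of JNK, had the smallest p of the 10. It had 51.5, 54.2 and 59.64 CPM in OE-circSHPRH replicates 1 to 3, against 59.62, 62.8 and 60.9 CPM in OE-NC replicates 1 to 3. The groups touched only where OE-circSHPRH replicate 3 stood beside OE-NC replicate 1, and with upper-quartile scaling these libraries parted in the other order, at 59.5 and 59.8 CPM, and the groups no longer overlapped. The log2 fold change was -0.15 (SE 0.062), a 0.901-fold level with an interval of 0.823 to 0.986. Its unadjusted p was 0.0263 and its adjusted p 0.393 in the edgeR fit across all genes. The interval is not adjusted for the number of genes tested. Across all genes, 10.3% had an unadjusted p this side of 0.05. In the authors' deposited table JUN showed a log2 fold change of -0.15 with a p of 0.0509 and an adjusted p of 0.495.

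FOS and FOSB encode the partners that cannot pair with themselves and are strongly induced by stimulation. FOS counts were 44, 24 and 26 in OE-circSHPRH, against 33, 38 and 32 in OE-NC. The highest and the lowest count both belonged to OE-circSHPRH. FOSB counts were 11, 20 and 12 in OE-circSHPRH, against 8, 12 and 13 in OE-NC, with overlapping groups. The log2 fold change was -0.09 for FOS (SE 0.28; adjusted p of 0.951 in edgeR) and 0.44 for FOSB (SE 0.41; adjusted p of 0.785 in edgeR). At this depth the intervals were wide: 0.628- to 1.41-fold for FOS and 0.743- to 2.46-fold for FOSB. FOSB lies on the opposite strand inside the span of ERCC1 (934 to 1090 counts per library), with no exon base in common. The sources used here do not state whether counting used strand, so ERCC1 precursor reads cannot be told apart from FOSB reads.

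Taken as FPKM sums, the 3 JUN genes held 113 ± 8.48 in OE-circSHPRH and 116 ± 4.51 in OE-NC (SD, n = 3 each). JUND made up 56.1% ± 1.92 of that sum in OE-circSHPRH and 52.8% ± 2.56 in OE-NC (SD, n = 3 each). The 4 FOS family genes, with FOSL1 and FOSL2 added to FOS and FOSB, summed to 9.07 ± 0.719 FPKM in OE-circSHPRH and 7.89 ± 0.297 FPKM in OE-NC (SD, n = 3 each). FOS and FOSB gave only 0.738 ± 0.154 FPKM of this in OE-circSHPRH and 0.734 ± 0.046 FPKM in OE-NC. FOSL1 (FRA-1), a FOS relative that accumulates with lasting ERK activity, held 5.42 ± 0.534 FPKM in OE-circSHPRH and 4.38 ± 0.178 FPKM in OE-NC (SD, n = 3 each). Its groups did not overlap, as was so for 15.6% of all genes tested, and its log2 fold change was 0.31 (SE 0.12, adjusted p of 0.382 in edgeR). JUN family mRNA in deposited FPKM thus exceeded FOS family mRNA 12.6-fold ± 1.92 in OE-circSHPRH and 14.7-fold ± 0.381 in OE-NC (SD, n = 3 each), values given as a description of mRNA and without a test. These ratios depend on the deposited gene lengths. On principal transcript lengths the means over all libraries were higher for FOS (0.9002) and FOSB (0.2005), and unchanged for the 3 JUN genes. FOSL1 and FOSL2 were not recomputed.

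The EGR genes encode zinc finger factors, and EGR1 carried nearly all of the family's mRNA: 96.7% ± 0.372 of the summed EGR1 to EGR4 FPKM in OE-circSHPRH and 96.3% ± 0.508 in OE-NC (SD, n = 3 each). EGR1 had 73.9, 69.9 and 64.98 CPM in OE-circSHPRH, against 70.6, 67.5 and 68.4 CPM in OE-NC. The OE-circSHPRH libraries enclosed the OE-NC libraries on both sides. The log2 fold change was 0.02 (SE 0.058; adjusted p of 0.957 in edgeR). EGR2, a factor of Schwann cell myelination in mice, had 17, 20 and 9 counts in OE-circSHPRH, against 19, 17 and 13 in OE-NC. EGR3, which acts in sympathetic neuron and muscle spindle development in mice, had 30, 28 and 42 counts in OE-circSHPRH, against 43, 32 and 34 in OE-NC. Both had overlapping groups, and the 95% intervals ran from 0.552- to 1.71-fold for EGR2 and from 0.640- to 1.39-fold for EGR3 (edgeR adjusted p = 0.989 and 0.952 in that order).

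IER2, a nuclear protein of the immediate early response, had 50.6, 50.8 and 61.7 CPM in OE-circSHPRH, against 55.6, 58.3 and 54.6 CPM in OE-NC. OE-circSHPRH held its lowest and its highest library. The log2 fold change was -0.05 (SE 0.072; adjusted p of 0.878 in edgeR). NR4A1 (NUR77), an orphan nuclear receptor induced by nerve growth factor and depolarisation, had 37.5, 36.2 and 36.3 CPM in OE-circSHPRH, against 38.0, 38.6 and 38.9 CPM in OE-NC. It was the one member whose groups did not overlap, lower in OE-circSHPRH, while 15.6% of all genes tested did not overlap in either direction, 7.57% being lower and 7.99% higher. Its log2 fold change was -0.07 (SE 0.063; adjusted p of 0.765 in edgeR), a 0.952-fold level with a 95% interval of 0.869- to 1.04-fold. NR4A1 shares 754 exon bases with AC025259.3 on the opposite strand, which had 1 to 6 counts per library.

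**Figure D2:**
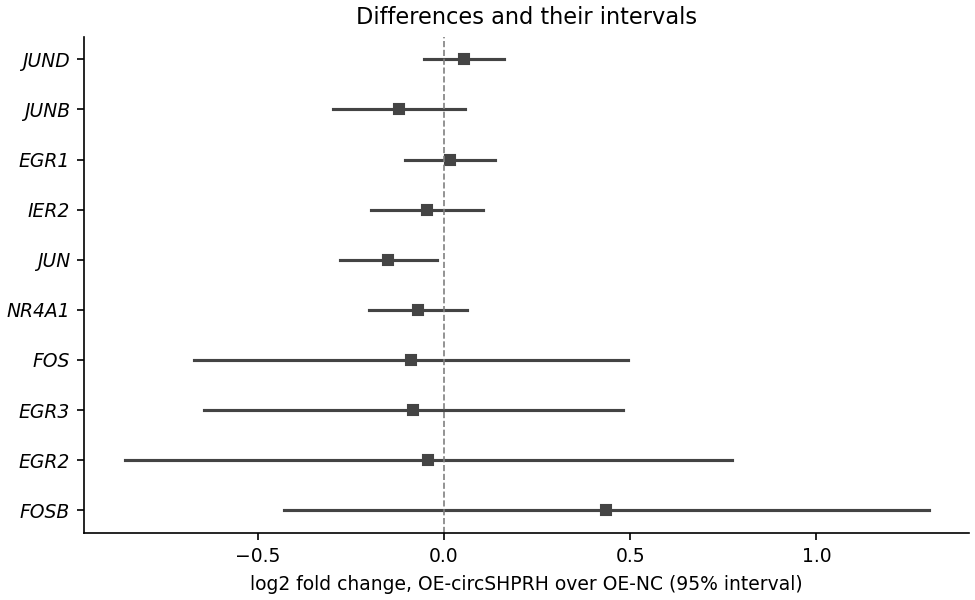
Log2 fold change of each immediate early gene, OE-circSHPRH over OE-NC (squares), with its 95% interval from edgeR (lines), in order of expression from the top. The intervals of JUND to NR4A1 stay within -0.30 to 0.16, whereas that of FOSB runs from -0.43 to 1.30.

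Spread among replicates differed from gene to gene. The coefficient of variation of JUNB over 3 libraries was 14.0% in OE-circSHPRH and 10.1% in OE-NC, where counting alone would give about 3.01%. IER2 varied by 11.7% in OE-circSHPRH and 3.46% in OE-NC, against 3.29% from counting. NR4A1 was the steadiest, at 2.001% in OE-circSHPRH and 1.28% in OE-NC, under the 3.99% of counting. For FOS the values were 31.4% in OE-circSHPRH and 8.74% in OE-NC, against 17.5% from counting. Counting error here assumes independent reads.

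The libraries also differed in mitochondrial share, a split that crosses the groups. Mitochondrially encoded genes took 11.4% to 12.1% of the counts in OE-circSHPRH replicates 1 and 2 and OE-NC replicate 3, and 10.2% to 10.3% in OE-circSHPRH replicate 3 and OE-NC replicates 1 and 2. JUNB had 53.9 to 65.3 CPM in the 3 high-share libraries and 69.6 to 75.7 CPM in the 3 low-share libraries. IER2 had 50.6 to 54.6 CPM in the high-share and 55.6 to 61.7 CPM in the low-share libraries. Neither gene overlapped between these classes, and the other 8 members did. A count of 2 in 10 is near the 17.2% of all genes tested that did not overlap in either direction (8.72% with the low-share libraries higher), so it is no result about these genes. The part of the mitochondrial share in these values was not tested.

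With only the high-share libraries, OE-circSHPRH minus OE-NC in mean log2 CPM was -0.21 for JUN, -0.06 for JUNB and -0.11 for IER2. With only the low-share libraries it was -0.04 for JUN, -0.02 for JUNB and 0.12 for IER2. Each of these differences has a single library on one side. With the class as a term the log2 fold change was -0.12 for JUN (edgeR adjusted p = 0.418), -0.04 for JUNB (adjusted p = 0.868) and 0.0061 for IER2 (adjusted p = 0.983), so that IER2 turned direction.

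Promoter windows of 4 members are printed because they hold letters of the site types named above, in 3 well-expressed genes and in FOS. RefSeq windows (GRCh38.p14, 250 bases before to 50 after the start) matched 9 of the 10 genes, with 12 windows; EGR3 is named only. Capitals mark a CArG box, the site of SRF (EGR1), a CRE or CRE half-site, the site of CREB and its relatives (EGR1, FOS, JUN and JUND), a variant AP-1 site (JUN) and a TATA box (FOS). All are printed 5′ to 3′ on the strand of the gene.
EGR1 promoter, chr5:138465229-138465528, plus strand: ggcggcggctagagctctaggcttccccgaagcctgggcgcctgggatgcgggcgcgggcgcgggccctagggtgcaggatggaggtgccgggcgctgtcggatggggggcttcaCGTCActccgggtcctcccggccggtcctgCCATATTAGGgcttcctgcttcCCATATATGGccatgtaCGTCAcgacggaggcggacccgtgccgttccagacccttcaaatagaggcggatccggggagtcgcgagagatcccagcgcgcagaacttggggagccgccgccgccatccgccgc
FOS promoter, chr14:75278578-75278877, plus strand: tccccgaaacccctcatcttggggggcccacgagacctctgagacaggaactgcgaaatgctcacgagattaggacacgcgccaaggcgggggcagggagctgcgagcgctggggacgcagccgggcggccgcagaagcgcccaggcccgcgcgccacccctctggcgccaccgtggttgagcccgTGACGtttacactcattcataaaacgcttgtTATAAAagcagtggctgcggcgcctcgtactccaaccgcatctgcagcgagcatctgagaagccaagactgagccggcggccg
JUN promoter, chr1:58783998-58784297, minus strand: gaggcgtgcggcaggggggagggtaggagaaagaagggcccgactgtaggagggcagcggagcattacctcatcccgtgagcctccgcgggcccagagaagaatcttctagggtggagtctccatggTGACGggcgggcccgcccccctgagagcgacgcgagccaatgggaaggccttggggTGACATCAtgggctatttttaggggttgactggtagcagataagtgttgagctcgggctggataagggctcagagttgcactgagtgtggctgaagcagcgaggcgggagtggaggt
JUND promoter, chr19:18281573-18281872, minus strand: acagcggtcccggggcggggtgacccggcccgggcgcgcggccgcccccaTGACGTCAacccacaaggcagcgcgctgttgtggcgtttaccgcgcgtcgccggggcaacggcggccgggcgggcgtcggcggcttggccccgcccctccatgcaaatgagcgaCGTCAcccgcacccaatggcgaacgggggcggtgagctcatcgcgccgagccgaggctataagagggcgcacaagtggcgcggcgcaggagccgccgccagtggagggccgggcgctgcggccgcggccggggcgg

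The motifs were searched on both strands, within the windows only. Sequence further upstream or downstream was not searched. A gene without a match, such as FOS for the CArG box, may therefore still have the site outside its window. The CRE half-site TGACG also lies inside the full CRE TGACGTCA. It was found in a window of 8 of the 9 genes, NR4A1 being the exception. That was 8 of the 12 windows, against 24.6% of the 35116 RefSeq windows. The full CRE was found in JUND alone of the 9 (1 of 12 windows), and in 1.85% of all windows. CArG boxes were found in EGR1, at 2 places, and in a window of EGR2 (2 of 12 windows), and in 1.29% of all windows. TATAAA was found in FOS, FOSB and JUNB (3 of 12 windows), and in 11.5% of all windows. The variant AP-1 letters TGACATCA were found in JUN (1 of 12 windows) and in 2.61% of all windows. The AP-1 letters TGACTCA or TGAGTCA, and the EGR letters GCGTGGGCG and GCGGGGGCG, were in none of the 12 windows and in 4.95%, 0.795% and 5.07% of all windows. Highly and barely expressed members both had these letters: the CRE half-site was in JUND, at a mean of 62.3 FPKM, and in FOSB, at 0.136 FPKM. A match is a string of letters and no evidence of a bound factor.

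Most of the 10 genes have few exons. In GENCODE release 29 the principal transcript had 1 exon in JUN, JUNB, JUND and IER2, and 2 in EGR1, EGR2 and EGR3, so that 7 of 10 had at most 2 exons, against 6.81% of 12972 protein-coding genes tested. FOS and FOSB had 4 exons and NR4A1 had 8, near the median of 9 over those genes. JUNB, IER2, JUND and FOSB lie on chromosome 19, with JUNB (12791496 to 12793315) and IER2 (13150415 to 13154908) separated by 357 kb on GRCh38. JUNB also lies inside the span of HOOK2, on the opposite strand, with 259 exon bases in common and 609 to 680 HOOK2 counts per library. JUNB reads there could not be told apart from HOOK2 reads without strand.

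In the 3′ UTR, the AU-rich pentamer ATTTA occurred 6.20 times per kilobase in FOS, 5.34 in NR4A1 and 4.0 in JUNB, against a median of 1.59 over those 12972 genes. It occurred 2.33 times per kilobase in JUN, 1.65 in EGR2, 1.47 in JUND, 1.39 in FOSB, 1.07 in EGR3 and 0.810 in EGR1, and IER2 had none. Thus 5 of the 10 members lay above the median. The longer AU-rich element TTATTTATT was in FOS alone of the 10, and in 8.52% of the genes tested. These 30-base sites show the overlapping pentamers of FOS beside single ones, with ATTTA in capitals, as the RNA-sense DNA letters of the transcript.
FOS 3′ UTR, bases 633 to 662 of 806: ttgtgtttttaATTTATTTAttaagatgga
JUN 3′ UTR, bases 710 to 739 of 1287: ttccagaaaggatATTTAagaaaatacaat
EGR1 3′ UTR, bases 982 to 1011 of 1234: actgaaaatgtaaATTTAtaaatatattca

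Other fast-response genes were taken from a list of 40, of which 39 were in the table and 33 were tested. By edgeR 0 rose and 0 fell, and 8 had an unadjusted p under 0.05, 4 in each direction, against 10.3% of all genes tested. DESeq2 called 1 of the 14 to which it gave an adjusted p, BTG2, against 1.19% of all genes with one, and limma-voom called 0. The median log2 fold change was -0.03. PLK2, a kinase gene also transcribed under p53, had 54.9 ± 3.26 CPM in OE-circSHPRH and 45.7 ± 0.593 CPM in OE-NC (SD, n = 3 each). Its log2 fold change was 0.26 (adjusted p = 0.0983 in edgeR). BTG2, an antiproliferative gene and another p53 target, had 151 ± 6.47 CPM in OE-circSHPRH and 132 ± 2.25 CPM in OE-NC (SD, n = 3 each). Its log2 fold change was 0.19 (adjusted p = 0.118 in edgeR and 0.0435 in DESeq2). MYC and HES1 had negative values, -0.12 (edgeR adjusted p = 0.327) and -0.24 (adjusted p = 0.267). The relatives of NR4A1 were low: NR4A2 had 0.310 ± 0.077 FPKM in OE-circSHPRH and 0.319 ± 0.072 FPKM in OE-NC, and NR4A3 had 0.785 ± 0.084 FPKM in OE-circSHPRH and 0.820 ± 0.012 FPKM in OE-NC (SD, n = 3 each).

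Among 31 upstream kinases and factors, all tested, edgeR and limma-voom called 0, DESeq2 called 0 of the 23 with an adjusted p, and 4 had an unadjusted edgeR p under 0.05. Over all genes tested that share was 10.3%, against which the same counts of the lists that follow also stand. SRF, the CArG box factor, had 67.4 ± 2.52 CPM in OE-circSHPRH and 75.1 ± 0.381 CPM in OE-NC (SD, n = 3 each). Its log2 fold change was -0.16 (edgeR adjusted p = 0.266), and the groups did not overlap, as was so for 15.6% of all genes tested. ELK3, an SRF partner, stood at 0.20 ± 0.063 on the log2 scale (fold change ± SE; edgeR adjusted p = 0.243), and RPS6KA1, an ERK-activated kinase, 0.23 (SE 0.090, adjusted p = 0.353). Of 11 other bZIP factors tested edgeR and limma-voom called 0 and DESeq2 0 of 5 with an adjusted p, with 2 at an unadjusted edgeR p under 0.05. ATF3, a stress-induced partner of JUN, stood at -0.14 ± 0.049 on the log2 scale (fold change ± SE; edgeR adjusted p = 0.307). ATF3 is counted in the list of other fast-response genes as well. Of 11 corepressors and turnover factors tested edgeR and limma-voom called 0 and DESeq2 0 of 9 with an adjusted p, with 1 at an unadjusted edgeR p under 0.05, FBXW7, which encodes a ubiquitin ligase subunit that targets JUN (log2 fold change 0.17, SE 0.068, edgeR adjusted p = 0.380).

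Of 11 AP-1 target genes tested, 0 were called by edgeR or limma-voom and 0 of 5 with an adjusted p by DESeq2. An unadjusted edgeR p under 0.05 was found for 4, against 10.3% of all genes tested. Those 4 had positive log2 fold changes: TIMP1 (0.18), CD44 (0.52), CCND1 (0.11) and FOSL1 (0.31), with edgeR adjusted p of 0.239 to 0.382. FOSL1 is counted in the list of bZIP factors as well. The AP-1 target list's median was 0.11. Of 11 EGR target genes tested, 0 were called by edgeR or limma-voom and 0 of 5 with an adjusted p by DESeq2, and 1 had an unadjusted edgeR p under 0.05, with a list median of 0.10. Heat shock genes, which encode protein-folding chaperones, had 0 of 11 called by edgeR or limma-voom, 0 of 8 with an adjusted p by DESeq2, and 5 at an unadjusted edgeR p under 0.05. Of those 5, 4 had positive log2 fold changes and 1 a negative one. The heat shock list's median log2 fold change was 0.04, in a range of -0.33 to 0.31. Its summed level was 1084 to 1157 FPKM in OE-circSHPRH and 1093 to 1110 FPKM in OE-NC. All list medians stand against 0.0018 over all genes tested, with no test of a list. All counts at an unadjusted edgeR p under 0.05 stand against 10.3% of all genes tested.

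**Figure D3:**
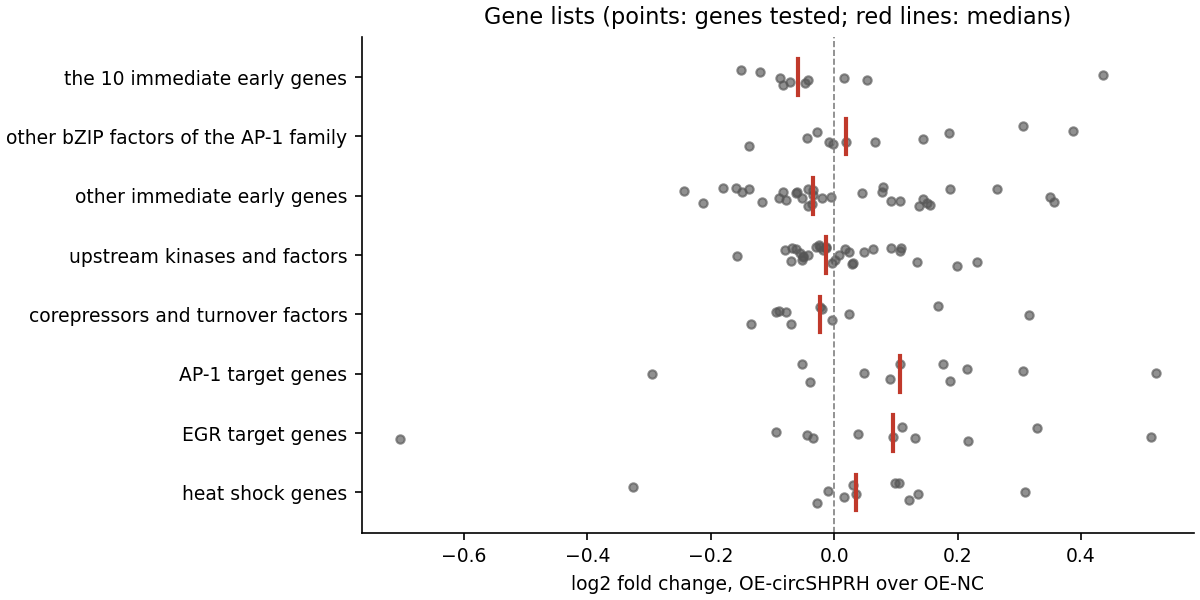
Log2 fold change, OE-circSHPRH over OE-NC, of each tested gene (points) in the 10 immediate early genes and in 7 related lists; red lines are list medians. The medians run from -0.06 for the 10 immediate early genes to 0.11 for AP-1 target genes, and no point in these lists was called by edgeR.

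By Pearson correlation of log2 CPM over the 6 libraries, among protein-coding genes with a mean log2 CPM of at least 3, the genes most like FOS were SLC22A15 (0.993), PDCD2L (0.977) and FERMT2 (0.9753). Those most like JUN were MRPS12 (0.998), YIPF4 (0.997) and NEDD8 (0.996). Those most like EGR1 were SGCB (0.999), ATL1 (0.9985) and LYPLAL1 (0.997). These values describe 6 shared libraries, which also differ in depth and mitochondrial share. They were picked as the highest of 10355 correlations for FOS and of 10354 each for JUN and EGR1. FOS had only 24 to 44 counts per library, where counting alone would give a coefficient of variation of about 17.5%. In all, 56 of 10355 genes exceeded 0.9 with FOS, 242 of 10354 with JUN and 123 of 10354 with EGR1.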

How the data were processed

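The authors deposited 1 table of raw read counts per gene and library, with FPKM (normalized for gene length and library) and their own comparison as log2 fold change and p-value, per the file headers. The sources used here do not give the aligner, counter, strand setting or test. The submitters' processing notes name GRCh37, but 99.9% of the deposited gene coordinates equal GENCODE release 29 on GRCh38, which is used here. Another 6 columns of per-sample values were not used.

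Counts were filtered with filterByExpr (minimum count 10, minimum total 15), leaving 16458 genes, scaled by TMM and tested with edgeR 4.0.16 (glmQLFit, glmQLFTest, group only, two-sided, Benjamini-Hochberg at 0.05) in R 4.3.3. DESeq2 1.42.0, limma 3.58.1 and other scalings, filters, terms and left-out libraries were alternatives. SE is the absolute log2 fold change over the square root of F, and intervals are 95%. CPM are TMM-scaled. The code was tested on simulated counts. 1 count equals 0.0570 to 0.0645 CPM. Every member is named; of the other lists, genes past the threshold, then up to 3 by smallest p and 2 by highest level could be named, and family relatives, NR4A2 and NR4A3 were added after their values were seen. Members and lists were chosen with earlier results of these data known. A gene of the EGR target list is not reported here by name.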

Additional observations from a re-analysis of the deposited data

How the results depend on the processing

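The count of immediate early genes called was 0 in the 14 alternative fits, of which DESeq2 gave no adjusted p to FOS, FOSB, EGR2 and EGR3. The count over all genes was 31 and moved: 194 with no filter on low counts, 77 with DESeq2, 171 with the mitochondrial share class as a term, and 5 to 311 with a library left out (5 without OE-circSHPRH replicate 2, 311 without replicate 3). JUN kept a negative log2 fold change in the 14 fits (-0.21 to -0.10, lowest adjusted p = 0.0827), with an unadjusted p under 0.05 in 10. JUNB, JUND, NR4A1 and FOSB kept their direction, but with a library left out JUNB ran from -0.21 (without OE-circSHPRH replicate 3) to -0.01 (without replicate 1), with an unadjusted p under 0.05 in 2 fits, FOSB from 0.08 to 0.62, JUND from 0.01 to 0.09 and NR4A1 from -0.09 to -0.06. With the class as a term EGR1 turned to -0.0063, EGR3 to 0.0265 and IER2 to 0.0061. With a library left out the log2 fold change ran from -0.38 to 0.04 for FOS, -0.0304 to 0.0638 for EGR1, -0.32 to 0.24 for EGR2, -0.27 to 0.11 for EGR3 and -0.15 to 0.0026 for IER2; the sign turned without OE-circSHPRH replicate 2 (FOS, 0.04), replicate 3 (FOS, 0.039; EGR2, 0.24) or replicate 1 (EGR1, -0.0304; EGR3, 0.01; IER2, 0.0026), and without OE-NC replicate 1 (EGR2, 0.13; EGR3, 0.11). The cause was not tested. Deviations from the group mean in same-numbered libraries had correlations of -0.07, 0.02 and -0.32 over 10892 genes. With 3 libraries per group these values cannot decide whether the numbers pair the libraries, which the labels do not say. With the replicate block 6 genes were called over all genes and 0 of the 10. For FOS, FOSB, EGR2 and EGR3, with 8 to 44 counts per library, depth limits what could be detected.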
